A study of Mus musculus with 9 samples.

Results

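Transcript levels of 9 genes of retinoic acid synthesis, binding and reception (Adh1, Aldh1a1, Aldh1a2, Stra6, Crabp1, Crabp2, Rara, Rarb and Rarg) were followed through 3 dissected structures of the developing mouse kidney. Every probe set whose platform annotation gave exactly 1 symbol, one of these 9, was taken. This gave 10 of 22626 non-control probe sets, with 2 for Rarg and 1 for each other gene, and 0 probe sets that also carried a further symbol. The arrays were Affymetrix MOE430A, on which a probe set is a group of short oligonucleotides that reports on a transcript by its brightness.

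The s-shaped body is the folded, later stage of nephron formation, the renal vesicle is the earlier epithelial ball from which it develops, and the collecting duct is the branched epithelium derived from the ureteric bud. All samples came from wild-type embryos of strain 129 and unknown sex at E14.5 (Theiler stage 22). There were 3 arrays of s-shaped body and 3 of renal vesicle, each from a pool of 20 structures, and 3 of collecting duct, each with a pool size of 1. The structures were cut out by their shape, the submitters checked their identity by staining and RT-PCR, and all RNA underwent 2 rounds of amplification. A dissected structure can carry along cells that lay next to it.

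Retinoic acid is made from vitamin A. Retinol is taken up by cells through Stra6, the receptor for the retinol carrier of the blood, and is oxidised first to retinal by alcohol or retinol dehydrogenases and then to retinoic acid by the retinaldehyde dehydrogenases of the Aldh1a family. Inside the cell retinoic acid is held by the binding proteins Crabp1 and Crabp2, and it acts on transcription through the nuclear receptors Rara, Rarb and Rarg, which pair with retinoid X receptors on DNA. In the embryonic mouse kidney stromal cells are a known source of retinoic acid, made through Aldh1a2, and receptors in the ureteric bud are known to maintain expression of the growth factor receptor gene Ret there.

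Structure and array quality were examined first. Array medians lay between 112.2 and 144.8 intensity units. The summed intensity of 8 renal vesicle marker genes was 957 to 1035 in the s-shaped body, 11175 to 12862 in the renal vesicle and 1657 to 2494 in the collecting duct. The sum of the 7 s-shaped body markers on the array was 31807 to 38171 in the s-shaped body, 3209 to 9416 in the renal vesicle and 358 to 534 in the collecting duct, and that of 9 collecting duct markers was 1089 to 1205, 2212 to 4322 and 30031 to 44507 in the same order. Podxl gave 19487 to 25438 units in the s-shaped body. Of 6 s-shaped body markers tested, 5 were higher in s-shaped body than in renal vesicle, and 1, Irx1, was lower (means 61.5 and 154.9 units). Krt8 and Krt18 gave 14726 to 25732 and 10254 to 12691 units in the collecting duct. Of 7 collecting duct markers tested, 5 were lower in renal vesicle than in collecting duct, and 1, Wnt11, was higher (means 352 and 107 units). Among defining markers, Fgf8 in the renal vesicle (mean 2.41), Pou3f3 in the s-shaped body (mean 5.98) and Wnt9b in the collecting duct (mean 16.8) were far below the array medians. Erythroid markers summed to 19337 to 22523 in the s-shaped body, 431 to 2643 in the renal vesicle and 157 to 2513 in the collecting duct. Macrophage markers summed to 3280 to 3953, 619 to 947 and 862 to 981 in the same order. Csf1r alone gave 2696 to 3115 of the macrophage sum on s-shaped body arrays. No array put C1qa, C1qb, Cd68, Fcer1g or Tyrobp above its median. Ptprc, not tested, ran the other way, averaging 77.8 units in s-shaped body against 186 in renal vesicle. Only 2 macrophage genes were tested, Csf1r and Adgre1, and both were higher in s-shaped body than in renal vesicle. Renal vesicle replicate 3 stood apart from its group with a sum of s-shaped body markers of 9416, against 4121 and 3209 in replicates 1 and 2, to which Podxl gave 3018, against 248 and 247. Its endothelial sum was 10005, against 4880 and 4776, but 9700 of this came from Cldn5 alone. Of the other endothelial genes, Icam2, Emcn, Tek and Kdr were lower there than in replicates 1 and 2. Cdh5 and Tie1 lay between replicates 1 and 2, Pecam1 was higher at 46.0 units, against 38.4 and 44.3, and the probe sets of Eng disagreed. Collecting duct replicate 2 had an erythroid sum of 2513, of which Hbb-y gave 2326, against 157 and 249 in replicates 1 and 3. Gapdh control probe sets at the 3′ end exceeded those at the 5′ end, a gauge of RNA shortening, by 20.0 to 32.4 times on s-shaped body arrays, 12.0 to 14.54 times on renal vesicle arrays and 11.6 to 18.6 times on collecting duct arrays. The Actb controls gave 30.1 to 50.9, 32.2 to 41.2 and 34.1 to 42.5 times in the same order, and overlapped.

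**Figure D1:**
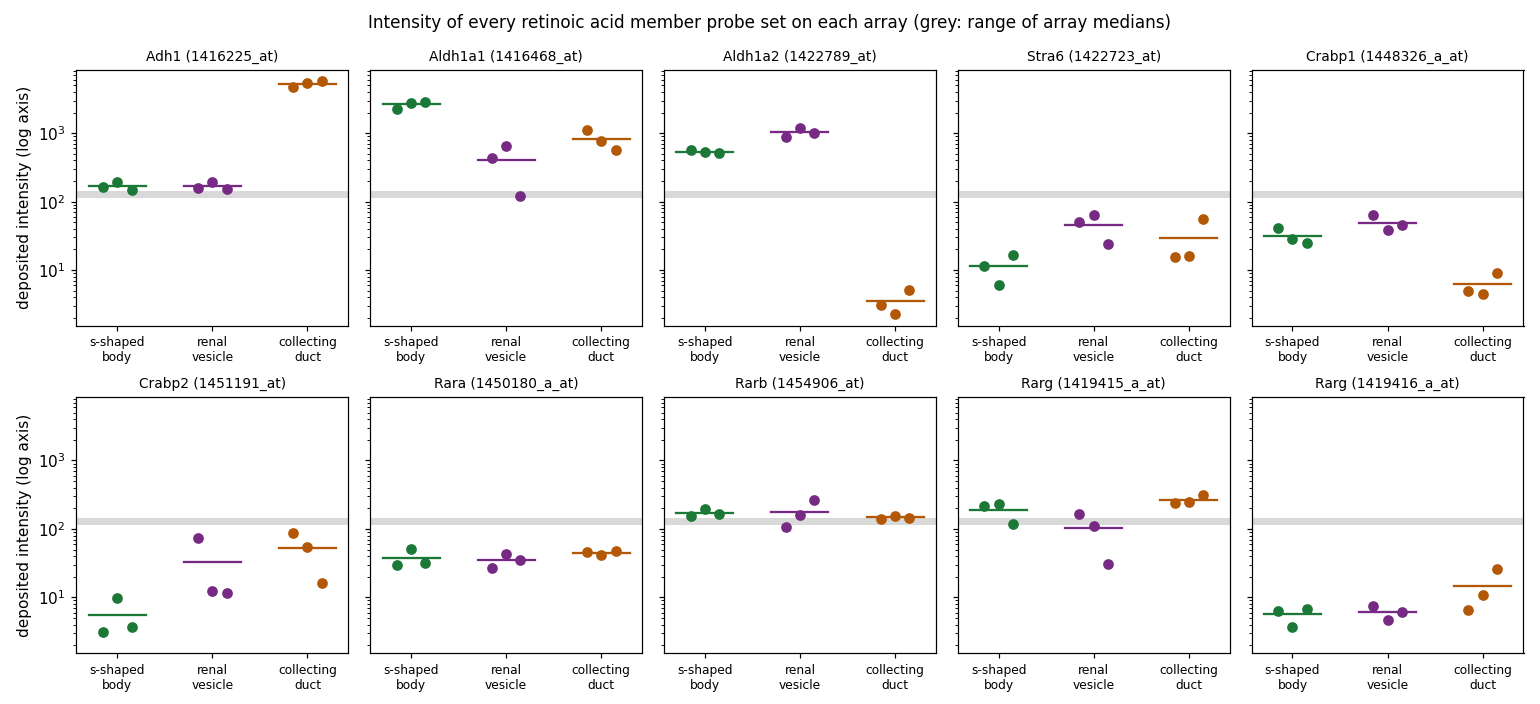
Deposited intensity (log axis) of each of the 10 member probe sets on the 9 arrays, with s-shaped body left, renal vesicle in the middle and collecting duct right. Points are arrays, horizontal lines are group means and the grey band is the range of array medians. Adh1 stands at 4732 to 5737 units on the collecting duct arrays and at 197 or less on the others, Aldh1a2 is at 5.15 or less there and at 519.7 or more elsewhere, and Stra6, Crabp1, Crabp2 and Rara lie below the band on every array.

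Of the 10 probe sets, 5 exceeded the median of their own array on at least 3 arrays and were among the 12588 tested: those of Adh1, Aldh1a1, Aldh1a2 and Rarb and 1 of the 2 for Rarg. The other 5 were too dim for the test, and their levels are given without one. A probe set that was bright in only 1 or 2 structures could pass this filter, so the tested members are not a neutral sample of the family. In the comparison of s-shaped body with renal vesicle 1 member probe set was higher and 1 lower, where 33.6% of all probe sets tested were called in either direction. Against the collecting duct the s-shaped body had 2 higher and 1 lower, beside 28.6% of all probe sets, and the renal vesicle had 1 higher and 2 lower, beside 28.4%. After normalisation the arrays did not overlap for 2 of the 5 between s-shaped body and renal vesicle (51.3% of all probe sets tested), for 5 between s-shaped body and collecting duct (40.9%) and for 3 between renal vesicle and collecting duct (41.3%). The median difference of the 5 was -0.12, 0.20 and -1.12 log2 units in these comparisons, and that of all 12588 tested was -0.06, -0.04 and 0.03.

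The enzyme genes, with 3 probe sets kept by the brightness filter, held 9 of the 15 tested differences and 7 of the 8 called. Of all probe sets tested, 28.4% to 33.6% were called in each comparison. Adh1 (probe set 1416225_at) encodes the class I alcohol dehydrogenase of the mouse, which can oxidise retinol to retinal. It measured 164, 197 and 150.1 intensity units on the s-shaped body arrays, 160.4, 196 and 153 on the renal vesicle arrays, and 4732, 5419.6 and 5737 on the collecting duct arrays. The collecting duct arrays thus lay far above all 6 nephron arrays, whose own values overlapped. On the normalised log2 scale, to which a pseudocount of 26 was added, the levels were 7.56 ± 0.19 in the s-shaped body, 7.70 ± 0.15 in the renal vesicle and 12.41 ± 0.09 in the collecting duct (SD, n = 3 each). Adh1 was 29.0-fold lower in s-shaped body (a log2 difference of -4.86 with SE 0.17, adjusted p = 7.1e-09) and 26.2-fold lower in the renal vesicle (-4.71, SE 0.17, adjusted p = 7.2e-09) than in collecting duct. These were the 28th and the 16th most negative differences of all probe sets tested. Between s-shaped body and renal vesicle the difference of -0.15 (SE 0.17) did not pass the test (adjusted p = 0.54). In bulk samples such as these, fewer cells of a type and less RNA per cell cannot be told apart.

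The summed level of urothelial marker genes was, like Adh1, highest in the collecting duct. The 6 on the array summed to 404 to 604 units in the s-shaped body, 430 to 651 in the renal vesicle and 12926 to 15295 in the collecting duct, where Foxa1 gave 8822 to 11507 of it. Of the 4 tested, 3 were lower in the s-shaped body and 3 lower in the renal vesicle than in collecting duct. The basal keratin gene Krt5, also on that list, averaged 47.9, 53.9 and 38.9 units in s-shaped body, renal vesicle and collecting duct, below the array medians in each. The part of urothelial cells in the Adh1 level was not tested.

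Aldh1a2 (probe set 1422789_at), the retinaldehyde dehydrogenase that makes most retinoic acid of the early mouse embryo, had the opposite distribution. It measured 561, 534 and 519.7 units in the s-shaped body, 891, 1178 and 1012 units in the renal vesicle, and 3.07, 2.27 and 5.15 units in the collecting duct. No 2 structures overlapped, and the order was renal vesicle, s-shaped body, collecting duct. Mean log2 levels were 9.11 ± 0.06 in the s-shaped body, 10.05 ± 0.19 in the renal vesicle and 4.87 ± 0.06 in the collecting duct (SD, n = 3 each). Aldh1a2 was 1.93-fold lower in s-shaped body than in renal vesicle (a log2 difference of -0.95 with SE 0.17, adjusted p = 0.0011). It was 18.9-fold higher in s-shaped body (4.24, SE 0.17, adjusted p = 7.7e-09) and 36.5-fold higher in the renal vesicle (5.19, SE 0.17, adjusted p = 3.2e-09) than in collecting duct. The probe set passed the filter through the 6 nephron arrays alone, which favoured a pass against the collecting duct. The collecting duct values lay under the pseudocount, so the size of both folds depended on it: with a pseudocount of 1 the differences were 7.04 and 8.02, and with 100 they were 2.60 and 3.46.

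Stromal markers did not follow the order of Aldh1a2 between the nephron stages. The 11 stromal genes summed to 23737 to 30484 units in the s-shaped body, 1828 to 3324 units in the renal vesicle and 748 to 1095 units in the collecting duct. Of the 8 tested, 7 were higher in s-shaped body than in renal vesicle, a comparison in which Aldh1a2 was lower. Against the collecting duct 8 were higher in s-shaped body and 6 in the renal vesicle, as Aldh1a2 was. The stromal marker Foxd1 averaged 1616, 238 and 26.4 units, and Dcn, which encodes decorin, 87.0, 43.3 and 74.1 units, in s-shaped body, renal vesicle and collecting duct. The part of stromal cells in the Aldh1a2 level was not tested.

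The promoters of these genes, the 2 members with the largest differences from the collecting duct, are shown because the members moved in opposite directions. They are RefSeq windows of build GRCm38.p6, from 250 bases before to 50 bases after the transcription start, both on the plus strand: chr3:138277335-138277634 for Adh1 and chr9:71215539-71215838 for Aldh1a2. Capitals mark CACGTG in Adh1 and CCAAT in Aldh1a2.
Adh1: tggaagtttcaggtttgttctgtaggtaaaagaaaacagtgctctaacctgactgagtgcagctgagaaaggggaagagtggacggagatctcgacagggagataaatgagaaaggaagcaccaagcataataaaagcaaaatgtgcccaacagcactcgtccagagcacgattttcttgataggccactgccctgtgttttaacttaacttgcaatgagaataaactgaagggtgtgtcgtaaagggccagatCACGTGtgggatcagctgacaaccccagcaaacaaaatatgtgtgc
Aldh1a2: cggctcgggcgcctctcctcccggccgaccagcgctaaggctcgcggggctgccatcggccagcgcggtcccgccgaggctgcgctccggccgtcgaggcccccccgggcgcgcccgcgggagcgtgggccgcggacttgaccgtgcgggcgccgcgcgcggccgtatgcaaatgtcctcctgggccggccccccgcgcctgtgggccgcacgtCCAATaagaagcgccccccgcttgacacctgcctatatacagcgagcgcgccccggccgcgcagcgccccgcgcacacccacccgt
The Aldh1a2 window had 78% G and C bases and the Adh1 window 45.3%. Searched on both strands, CACGTG occurred in 7.15% and CCAAT in 37.4% of the 32851 promoter windows of the RefSeq table, and TATAAA, present in 13.6% of them, had 0 matches in the 16 windows of the 8 members the table held. Among the members CACGTG was also found for Rara, and CCAAT also for Aldh1a1, Rara and Stra6. These motifs were chosen after the windows had been read, and a link between them and the transcript levels was not tested.

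Aldh1a1 (probe set 1416468_at), the second retinaldehyde dehydrogenase, was highest in the s-shaped body. It measured 2262, 2798 and 2864 units in the s-shaped body, 429, 654 and 119.6 units in the renal vesicle, and 1105, 773 and 561 units in the collecting duct. The s-shaped body arrays stood above all others, while renal vesicle and collecting duct overlapped. Mean log2 levels were 11.38 ± 0.20 in the s-shaped body, 8.53 ± 1.13 in the renal vesicle and 9.65 ± 0.41 in the collecting duct (SD, n = 3 each). Aldh1a1 was 7.20-fold higher in s-shaped body than in renal vesicle (a log2 difference of 2.85 with SE 0.43, adjusted p = 0.00039) and 3.32-fold higher than in collecting duct (1.73, SE 0.43, adjusted p = 0.01). The difference of -1.12 (SE 0.43) between renal vesicle and collecting duct did not pass (adjusted p = 0.075).

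Renal vesicle replicate 3, the array with the high sum of s-shaped body markers, was the lowest of all 9 for Aldh1a1. Without it the s-shaped body was higher than the renal vesicle by 2.20 log2 units (adjusted p = 0.00011), and the difference of renal vesicle from collecting duct was -0.48 (adjusted p = 0.21). Without renal vesicle replicate 2, that difference from the collecting duct passed at -1.57 (adjusted p = 0.018). Endothelial markers summed to 22821 to 29352 units in the s-shaped body, 4776 to 10005 units in the renal vesicle and 301 to 425 units in the collecting duct, with Cldn5 the brightest of them in both nephron stages. All 7 endothelial genes tested were higher in the s-shaped body than in renal vesicle, as were 7 of 8 stromal and 3 of 3 erythroid genes. Their part in the Aldh1a1 level was not tested, nor was that of the 3′ to 5′ ratios, which were higher on the s-shaped body arrays for Gapdh and overlapped for Actb.

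**Figure D2:**
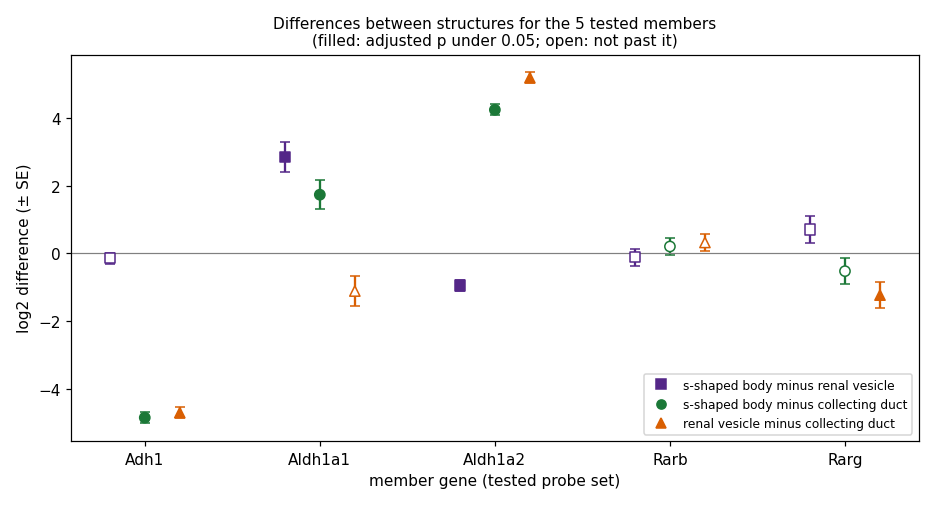
Log2 differences (vertical axis, bars ± SE, n = 3 arrays per structure) of the 5 tested member probe sets for s-shaped body minus renal vesicle, s-shaped body minus collecting duct and renal vesicle minus collecting duct. Filled symbols passed an adjusted p of 0.05. Adh1 lies near -4.86 and -4.71 against the collecting duct and Aldh1a2 at 4.24 and 5.19, whereas Rarb has no filled symbol.

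Stra6 (probe set 1422723_at) was dim everywhere. It measured 11.7, 6.07 and 16.8 units in the s-shaped body, 50.7, 63.7 and 24.45 units in the renal vesicle, and 15.5, 16.1 and 56.6 units in the collecting duct. The s-shaped body arrays lay below those of the renal vesicle, and the collecting duct overlapped both. No array put it above its median, and it was not tested. When every probe set was tested, without a filter, Stra6 was lower in s-shaped body than in renal vesicle (a difference of -1.02 log2 units, adjusted p = 0.029).

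The binding protein genes were dim as well. Crabp1 (probe set 1448326_a_at), whose product holds retinoic acid in the cytosol, measured 41.1, 28.0 and 24.7 units in the s-shaped body, 62.9, 38.2 and 45.3 units in the renal vesicle, and 4.87, 4.52 and 9.17 units in the collecting duct. All 6 nephron arrays were above the collecting duct arrays, and the nephron stages overlapped. Without a filter its difference from the collecting duct was 0.83 in the s-shaped body (adjusted p = 0.016) and 1.33 in the renal vesicle (adjusted p = 0.0013). Crabp2 (probe set 1451191_at), whose product hands retinoic acid to its nuclear receptors, measured 3.11, 9.78 and 3.67 units in the s-shaped body, 74.7, 12.3 and 11.5 units in the renal vesicle, and 87.2, 53.75 and 16.45 units in the collecting duct. The s-shaped body arrays were the lowest, and renal vesicle and collecting duct overlapped, with 1 renal vesicle array far above the other 2. Without a filter no comparison of Crabp2 passed (adjusted p = 0.11, 0.25 and 0.7 for s-shaped body with collecting duct, s-shaped body with renal vesicle and renal vesicle with collecting duct).

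Among the receptor genes, 1 tested difference of 6 passed, beside 28.4% to 33.6% of all probe sets tested in each comparison. Rara (probe set 1450180_a_at), the most widely expressed receptor of the family, measured 29.7, 50.04 and 32.3 units in the s-shaped body, 26.4, 43.5 and 34.85 units in the renal vesicle, and 45.5, 41.6 and 48.05 units in the collecting duct. The 3 structures overlapped, and no array put Rara above its median. Without a filter its differences lay between -0.12 and -0.06, and none passed (adjusted p = 0.76 for s-shaped body with collecting duct and 0.89 for each of the others).

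Rarb (probe set 1454906_at) is a receptor gene that retinoic acid itself induces. It measured 155.15, 198 and 164.6 units in the s-shaped body, 108, 160.2 and 266 units in the renal vesicle, and 140.8, 155.47 and 145 units in the collecting duct. The renal vesicle arrays spanned the values of both other structures. Mean log2 levels were 7.58 ± 0.16, 7.70 ± 0.52 and 7.38 ± 0.09 in s-shaped body, renal vesicle and collecting duct (SD, n = 3 each). No difference passed: -0.12 (SE 0.25, adjusted p = 0.75) for s-shaped body minus renal vesicle, 0.20 (SE 0.25, adjusted p = 0.59) for s-shaped body minus collecting duct, and 0.32 (SE 0.25, adjusted p = 0.37) for renal vesicle minus collecting duct. Its deposited values in s-shaped body and collecting duct met at 155.15 and 155.47 units.

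The Rarb promoter is shown because retinoic acid is known to act on Rarb through a repeated element near its start. The RefSeq window of build GRCm38.p6 is chr14:16575427-16575726, on the minus strand, from 250 bases before to 50 bases after the transcription start. Capitals mark a match to GGTTCA followed by any 5 bases and AGTTCA, whose first base lies at -53 from the start.
Rarb: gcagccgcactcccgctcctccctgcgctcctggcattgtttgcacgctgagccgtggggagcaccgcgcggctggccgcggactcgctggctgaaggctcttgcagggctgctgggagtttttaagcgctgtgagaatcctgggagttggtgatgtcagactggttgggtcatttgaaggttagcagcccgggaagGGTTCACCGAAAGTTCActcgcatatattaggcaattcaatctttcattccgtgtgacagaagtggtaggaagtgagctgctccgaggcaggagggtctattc
The repeat units searched for are those of the known Rarb element, so the match in the Rarb window was given in advance and is no result. This spaced repeat occurred on either strand in 2 of the 32851 promoter windows, or 0.00609%, and among the 16 windows of the members in that of Rarb alone. The related repeat of AGGTCA with AGGTCA, also 5 bases apart, occurred in 3 windows (0.00913%), with 0 among the members. AGGTCA by itself was found in 16.3% of all windows and in those of Rara and Rarg among the members.

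Rarg, the third receptor gene, was highest in the collecting duct. Its tested probe set (1419415_a_at) measured 215, 229 and 118 units in the s-shaped body, 164, 111 and 30.3 units in the renal vesicle, and 242, 248 and 309 units in the collecting duct. All nephron arrays lay below those of the collecting duct, and the 2 nephron stages overlapped. Mean log2 levels were 7.63 ± 0.49 in the s-shaped body, 6.93 ± 0.94 in the renal vesicle and 8.16 ± 0.18 in the collecting duct (SD, n = 3 each). Rarg was 2.35-fold lower in the renal vesicle than in collecting duct (a log2 difference of -1.23 with SE 0.39, adjusted p = 0.035). The differences of -0.53 between s-shaped body and collecting duct (adjusted p = 0.36) and of 0.71 between s-shaped body and renal vesicle (adjusted p = 0.19) did not pass.

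The Rarg call was lost when some single arrays were left out and held without others. Without renal vesicle replicate 3, its lowest array, the difference was -0.72 (adjusted p = 0.098). The call was also lost without renal vesicle replicate 2, at -1.36 and an adjusted p of 0.055. Leaving out a collecting duct array gave -1.28 for the first (adjusted p = 0.054), -1.29 for the second (adjusted p = 0.075) and -1.14 for the third (adjusted p = 0.078). The call held without renal vesicle replicate 1 (-1.62, adjusted p = 0.011) and without any 1 s-shaped body array (adjusted p = 0.035 to 0.049). The second probe set of Rarg (1419416_a_at) measured 3.69 to 6.86 units in the s-shaped body, 4.66 to 7.45 in the renal vesicle and 6.47 to 26.2 in the collecting duct, too dim to be tested.

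Beyond the members, 52 further genes of retinoid handling and response were listed by role. The arrays held 43 of them with 66 probe sets, of which 31, for 24 genes, were tested. In s-shaped body against renal vesicle 6 probe sets were higher and 8 lower, in s-shaped body against collecting duct 6 were higher and 14 lower, and in renal vesicle against collecting duct 6 were higher and 11 lower. Over all probe sets tested, 16.3% were higher and 17.4% lower, 14.7% higher and 13.9% lower, and 14.8% higher and 13.5% lower in the same comparisons. The median difference of the 31 was -0.09, -0.56 and -0.46 log2 units. In the counts by role below, a gene counts when any of its tested probe sets passed, so they compare only loosely with shares of probe sets.

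**Figure D3:**
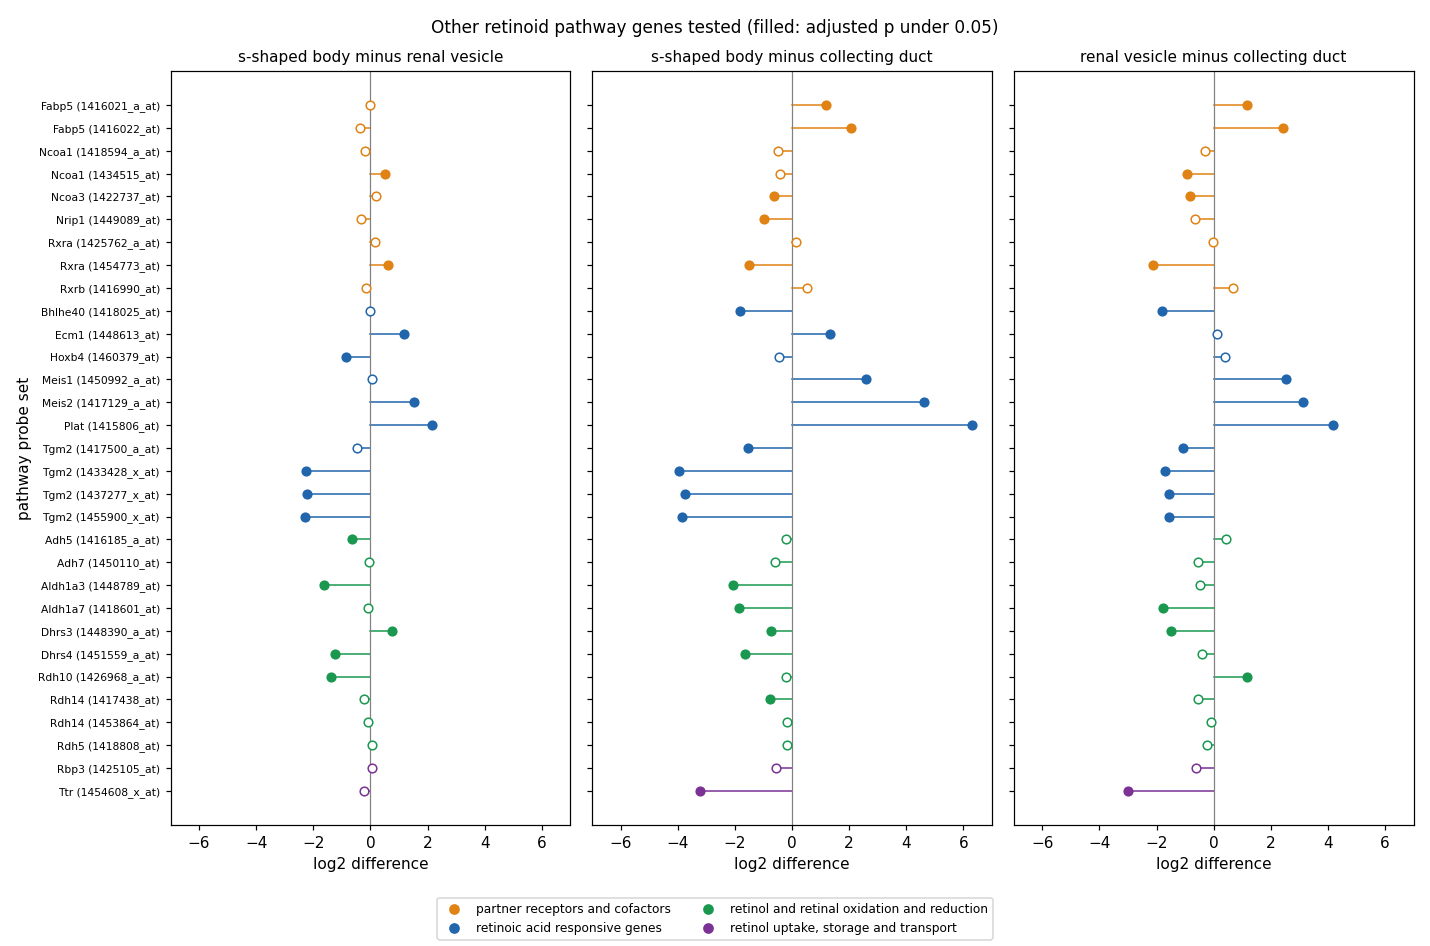
Log2 differences (horizontal axis) of the 31 tested probe sets of other retinoid pathway genes in the 3 comparisons, 1 row per probe set, coloured by role. Filled points passed an adjusted p of 0.05. Plat and Meis2 reach 6.31 and 4.64 to the right in s-shaped body minus collecting duct, and the bright Tgm2 probe sets lie near -3.76 to -3.95 to the left.

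Among enzyme genes that pass retinol and retinal back and forth or oxidise retinal, those that passed against the collecting duct were lower in the nephron, except Rdh10. Of 9 such genes tested, 1 was higher and 4 lower in s-shaped body than in renal vesicle, 0 higher and 5 lower in s-shaped body than in collecting duct, and 1 higher and 2 lower in the renal vesicle than in collecting duct. Over all probe sets tested, 13.5% to 17.4% passed in each direction. Rdh10, which oxidises retinol to retinal in the mouse embryo, measured 1036, 798 and 1116 units in the s-shaped body, 3029, 2707 and 2087 units in the renal vesicle, and 1047, 1144 and 1198 in the collecting duct. The renal vesicle was thus above both other structures on every array. Rdh10 was 2.60-fold lower in s-shaped body than in renal vesicle (adjusted p = 0.00025) and 2.24-fold higher in the renal vesicle than in collecting duct (adjusted p = 0.00096).

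Dhrs3, which reduces retinal to retinol, ran the other way between the nephron stages. It measured 408, 498 and 459.8 units in the s-shaped body, 223, 240.04 and 232 units in the renal vesicle, and 792, 666 and 796 in the collecting duct, with no overlap between structures. Dhrs3 was 1.70-fold higher in s-shaped body than in renal vesicle (adjusted p = 0.0031). It was 1.65-fold lower in s-shaped body (adjusted p = 0.0045) and 2.82-fold lower in the renal vesicle (adjusted p = 3.1e-05) than in collecting duct. Dhrs4, another retinal reductase gene, was 2.36-fold lower in s-shaped body than in renal vesicle (adjusted p = 0.0019) and 3.10-fold lower than in collecting duct (adjusted p = 0.00023). Adh5, a ubiquitous alcohol dehydrogenase gene, was 1.57-fold lower in s-shaped body than in renal vesicle (adjusted p = 0.0096).

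Aldh1a7, a close relative of Aldh1a1 in the mouse, measured 318, 172 and 409 units in the s-shaped body, 282, 462 and 162 units in the renal vesicle, and 1349, 1215 and 789.8 in the collecting duct. It was 3.66-fold lower in s-shaped body (adjusted p = 0.0015) and 3.45-fold lower in the renal vesicle (adjusted p = 0.0025) than in collecting duct, unlike Aldh1a1 in the s-shaped body. The genes are similar in sequence, and how far each probe set binds the transcript of the other was not tested. Aldh1a3, the remaining retinaldehyde dehydrogenase of the family, was by the tested 1 of its 3 probe sets 4.22-fold lower in s-shaped body than in collecting duct (adjusted p = 0.016). Of 7 genes of retinol transport and storage on the arrays 2 were tested. Among these Ttr, which encodes the blood carrier transthyretin, was lower in s-shaped body (adjusted p = 5.6e-06) and in renal vesicle (adjusted p = 1.8e-05) by the tested 1 of its 3 probe sets. That probe set measured 0.98 to 11.4 units on the nephron arrays, under the pseudocount, and 168, 239 and 329.6 units in the collecting duct, the 3 arrays through which it passed the filter. Another Ttr probe set measured 5.49 to 10.65 units on the nephron arrays and 9.65 to 10.12 units in the collecting duct. The third, not tested either, measured 0.84 to 14.7 units on the nephron arrays and 101.5 to 151.9 units in the collecting duct. The third and the tested probe set are of the type that can bind other transcripts. Of 3 genes of retinoic acid breakdown the arrays held Cyp26a1, which was not tested. Singled out after its values were seen, it measured 124, 67.99 and 105 units in the s-shaped body, 134, 98.6 and 38.45 units in the renal vesicle, and 47.7, 98.2 and 58.9 in the collecting duct, with all structures overlapping.

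Among 6 tested genes of partner receptors and cofactors, 2 were higher and 0 lower in s-shaped body than in renal vesicle, and 1 was higher and 3 lower than in collecting duct in each nephron stage. The share of all probe sets tested was 13.5% to 17.4% in each direction. Fabp5, whose product carries retinoic acid to another nuclear receptor, was 2.26-fold higher in s-shaped body (adjusted p = 1.1e-05) and 2.27-fold higher in the renal vesicle (adjusted p = 1.9e-05) than in collecting duct by its brighter probe set. Rxra, a retinoid X receptor gene, measured 384, 307 and 363 units in the s-shaped body, 174, 194 and 221 units in the renal vesicle, and 1058, 1007 and 997 in the collecting duct by 1 of its 2 probe sets. By that probe set it was 1.54-fold higher in s-shaped body than in renal vesicle (adjusted p = 0.011). It was 2.83-fold lower in s-shaped body (adjusted p = 1.8e-05) and 4.36-fold lower in the renal vesicle (adjusted p = 1.9e-06) than in collecting duct. The other Rxra probe set passed in no comparison (adjusted p = 0.69, 0.72 and 0.99), so the 2 disagree. The coactivator gene Ncoa1 was, by 1 of its 2 tested probe sets, 1.43-fold higher in s-shaped body than in renal vesicle (adjusted p = 0.037) and 1.90-fold lower in the renal vesicle than in collecting duct (adjusted p = 0.0018), and the other probe set passed in neither (adjusted p = 0.54 and 0.39). Nrip1, which encodes a corepressor, was 1.99-fold lower in s-shaped body than in collecting duct (adjusted p = 0.008). The coactivator gene Ncoa3 was lower than in collecting duct in both stages (1.56-fold in the s-shaped body, adjusted p = 0.013, and 1.78-fold in the renal vesicle, adjusted p = 0.0032).

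Of 7 tested genes known to respond to retinoic acid, 3 were higher and 2 lower in s-shaped body than in renal vesicle, 4 higher and 2 lower in s-shaped body than in collecting duct, and 3 higher and 2 lower in the renal vesicle than in collecting duct. Beside these counts, 13.5% to 17.4% of all probe sets tested passed in each direction. Plat, which encodes tissue plasminogen activator, measured 6489, 6727 and 8105 units in the s-shaped body, 1104, 1221 and 3054 units in the renal vesicle, and 45.9, 64.8 and 108.6 in the collecting duct. It was 79.5-fold higher in s-shaped body (adjusted p = 5.2e-08) and 17.9-fold higher in the renal vesicle (adjusted p = 2.2e-06) than in collecting duct. The brightest renal vesicle array was replicate 3. Plat is also made by endothelium, whose tested markers were higher in s-shaped body than in collecting duct for 7 of 7 genes and in renal vesicle for 3 of 7, and their part in the Plat level was not tested. The homeobox genes Meis1 and Meis2 were 6.04-fold and 24.9-fold higher in the s-shaped body than in collecting duct (adjusted p = 1.1e-06 and 2.4e-07), and Meis1 stands in the stromal list as well. In the renal vesicle they were 5.78-fold and 8.70-fold higher than in collecting duct (adjusted p = 2.4e-06 and 9.9e-06). Between the nephron stages Meis2 was 2.86-fold higher in s-shaped body (adjusted p = 0.0019), and Meis1 did not pass (adjusted p = 0.84). Plat, Meis1 and Meis2 passed the filter through the 6 nephron arrays alone. Ecm1, an extracellular matrix gene, was 2.28-fold higher in s-shaped body than in renal vesicle (adjusted p = 0.0037). Its probe set passed the filter through the 3 s-shaped body arrays alone, at 175 to 220 units. It measured 38.1 to 77.4 units in the renal vesicle and 47.2 to 90.3 in the collecting duct.

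Tgm2, which encodes a transglutaminase, was lower in the nephron than in collecting duct. Its brightest probe set measured 1143, 754 and 764.6 units in the s-shaped body, 3649, 4069 and 4859 units in the renal vesicle, and 8779, 10097 and 17522 in the collecting duct. The structures did not overlap, with the s-shaped body lowest and the collecting duct highest. Tgm2 was 4.63-fold lower in s-shaped body than in renal vesicle (adjusted p = 9.6e-06), 13.5-fold lower in the s-shaped body than in collecting duct (adjusted p = 8.0e-08) and 2.92-fold lower in the renal vesicle than in collecting duct (adjusted p = 0.00017). Of the 4 Tgm2 probe sets tested 3, the brightest included, are of the type that can bind other transcripts. The 1 that is not gave smaller differences, with 2.91-fold lower levels in s-shaped body (adjusted p = 4.2e-05) and 2.12-fold lower levels in renal vesicle (adjusted p = 0.00094) than in collecting duct, and did not pass between s-shaped body and renal vesicle (1.37-fold, adjusted p = 0.077). It entered the test through the 3 collecting duct arrays alone, at 244.5 to 279.6 units, against 69.6 to 113.8 units on the nephron arrays. Its passes against the collecting duct are thus no independent check. Ret, singled out after its values were seen, measured 87.0, 106 and 123 units in the s-shaped body, 119, 117 and 101 units in the renal vesicle, and 107, 136 and 182 in the collecting duct. It was above the array median on 2 arrays and was not tested.

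**Figure D4:**
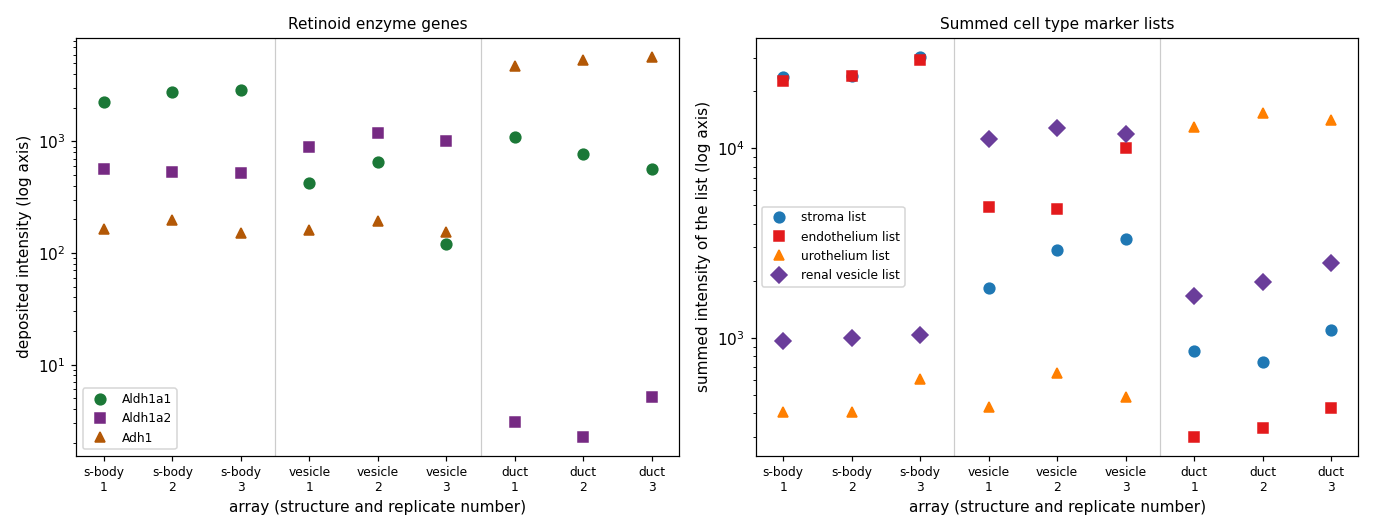
Intensity of Aldh1a1, Aldh1a2 and Adh1 (left, log axis) and summed intensity of 4 marker lists (right, log axis) on each array, with s-shaped body, renal vesicle and collecting duct from left to right. Adh1 and the urothelial sum are high on the same 3 collecting duct arrays, while Aldh1a2 is highest in the renal vesicle and the stromal sum is highest in the s-shaped body, at 23737 to 30484.

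The genes whose probe sets followed the called members most closely were found by Pearson's r over the 9 arrays, which fall into 3 structures, and are given as a description. Nearest to Adh1 were Lmo4 (r = 0.997), Foxa1 (0.996) and Trp63 (0.994), the last 2 being members of the urothelial list. Nearest to Aldh1a2 were Hoxa10 (0.997), Lama4 (0.996) and Masp1 (0.993). Nearest to Aldh1a1 were Diaph2 (0.967), Lgals8 (0.964) and Acyp2 (0.961), and nearest to Rarg were Son (0.964), Styx (0.951) and Plcg2 (0.947).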

How the data were processed

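Affymetrix MOE430A arrays measured transcripts in 9 samples. The deposited values are intensity on a linear scale, 1 per probe set and array, made with GCOS per the submitters' processing notes, whose version and algorithm are not given in the sources used here. From the values, array means without the 2% of probe sets at each end lay between 499.875 and 499.919. Of 22690 probe sets, 64 were controls. The platform annotation gave 20380 exactly 1 symbol, 691 several and 1555 none.

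Log2 was taken of intensity plus 26, which is the 20th percentile over all arrays, and the arrays were quantile normalised, since log2 medians differed by up to 0.30. A probe set was tested if at least 3 arrays had it above their median, which left 12588, each tested by itself. The pseudocount makes fold changes of dim probe sets too small. limma 3.58.1 under R 4.3.3 (functions lmFit and eBayes, trend = TRUE) gave two-sided tests on all 9 arrays, with Benjamini-Hochberg adjustment over all probe sets tested and a threshold of 0.05 for a call. The procedure was tested on simulated data. Each replicate is a separate minimally pooled sample per the labels, and with so few arrays the precision is limited by their number.

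The members, the lists, the rule for named genes (all members, then up to 4 genes per role and comparison with the smallest adjusted p) and the alternatives were chosen with earlier results of these data known. Replicate numbers are shared between structures. Deviations of same-numbered arrays from their group means correlated between -0.06 and 0.16, with 5 of 9 pairs above 0.1. Those of differently numbered arrays correlated between -0.14 and 0.16, with only s-shaped body replicate 2 and renal vesicle replicate 1 above 0.1. The numbers were not taken as pairs, and these values do not settle whether same-numbered arrays belong together.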

Additional observations from a re-analysis of the deposited data

How the results depend on the processing

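The 15 differences of tested members were recomputed under 21 alternatives each. Of 8 called differences 7 were called in all of them, the exception being Rarg between renal vesicle and collecting duct, whose call was lost in 8. It read -1.23 (adjusted p = 0.077) without the filter and -1.23 (adjusted p = 0.056) when only the 2 structures compared were fitted. It was -0.77 (adjusted p = 0.15) without both renal vesicle replicate 3 and collecting duct replicate 2. Of 7 differences not called 6 were called in none, and Aldh1a1 between renal vesicle and collecting duct was called with array weights (-0.61, adjusted p = 0.046) and without renal vesicle replicate 2. Between s-shaped body and renal vesicle the sign of Adh1 turned with the deposited scaling (0.0035, adjusted p = 0.99). That of Rarb turned with the deposited scaling (0.030), with array weights (0.022), without renal vesicle replicate 3 (0.16, in a range of -0.35 to 0.16 over single arrays left out) and without both arrays (0.16), and none of these passed.

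Leaving out each array gave 2 to 3 called members for renal vesicle against collecting duct, 3 to 3 for s-shaped body against collecting duct and 2 to 2 for s-shaped body against renal vesicle. With the replicate block the counts were 3, 3 and 2, as without it, and no member call changed. Over all probe sets the array weights, whose estimation stopped before convergence, raised the calls to 7516 from 3570 for renal vesicle against collecting duct and to 6878 from 3601 for s-shaped body against collecting duct, and omitting both arrays gave 2260 in the first of these. Median centring split that comparison into 2365 higher and 1412 lower, and the deposited scaling into 1671 higher and 1980 lower, where quantile normalisation gave 1867 and 1703. These moved the median difference by 0.09 and -0.07 log2 units. Dim signals limit what can be said of Stra6, Crabp1, Crabp2 and Rara.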

Other observations

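Adh7, which encodes an alcohol dehydrogenase of surface epithelia with high activity for retinol, was chosen here after its values were seen. One of its probe sets measured 1.19, 1.72 and 1.21 units in the s-shaped body, 6.56, 2.32 and 7.51 units in the renal vesicle, and 164, 124 and 293 units in the collecting duct. It was above the array median on 2 arrays and was not tested. The other Adh7 probe set had a difference of -0.60 in the s-shaped body (adjusted p = 0.097) and of -0.55 in the renal vesicle (adjusted p = 0.12) from the collecting duct.

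By 1 of its 3 probe sets Aldh1a3 was, like Aldh1a1 and Rarg, lowest of the renal vesicle arrays on replicate 3. That probe set measured 165 and 351 units in renal vesicle replicates 1 and 2 and 22.4 units in replicate 3, beside 19.6 to 34.4 units in the s-shaped body and 148 to 299.6 units in the collecting duct. The other 2 were dim, and on neither was replicate 3 the lowest renal vesicle array, at 35.2 and 14.03 units, against 20.6 and 8.41 units in replicate 1.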
